A study of Mus musculus with 4 samples.

Results

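Nucleosides, the sugar-bearing building blocks of nucleotides, cross cell membranes through transporter proteins, and 3 genes of that kind are described here: Gm14085, Slc28a2 and Slc29a1. They were picked by name out of 22730 gene symbols in the expression tables, with the KO to WT difference of Gm14085 already known, so their values in that comparison are a description and carry no test. All 3 passed the filter on low counts that left 13733 genes tested. The RNA came from total thymocytes, the developing T cells of the thymus, of 2 hnRNP L KO mice and 2 WT mice, with 1 library from each mouse, sequenced on the SOLiD platform after depletion of ribosomal RNA. Hnrnpl, the targeted gene, encodes a protein that binds pre-mRNA and regulates its splicing.

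The labels give KO and WT mice one shared mixed background, in which C57BL/6 and CD45.1 are named beside an LckCre transgene and the fluorescent reporter allele Gt(ROSA)26Sortm4(ACTB-tdTomato,-EGFP)Luo. LckCre places Cre recombinase under the promoter of the T cell kinase gene Lck, which acts in the T lineage. The sources used here do not state which mice carried Cre, which exons were deleted, or the age and sex of the mice.

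Reads assigned to genes numbered 27548708 and 28677506 in KO replicates 1 and 2, against 41775795 and 51544714 in WT replicates 1 and 2. For a gene at a like level in both groups, counting error is therefore larger in KO. Gm14085 itself had more reads in KO than in WT. Hnrnpl had 467 and 208 CPM (reads scaled to the size of the library, here with TMM factors) in KO thymocytes, against 854 and 813 CPM in WT thymocytes. Its log2 fold change of -1.30 (SE 0.42) did not pass edgeR's quasi-likelihood test (adjusted p = 0.486). The 10 thymocyte markers examined summed to 20314 and 16927 CPM in KO and to 19678 and 19852 CPM in WT, and none of them was at 0 in any library. The Y-linked gene Ddx3y had 4116 and 1 reads in KO and 17 and 1 reads in WT. Xist, an RNA of female cells, had 222 and 87390 reads in KO and 57852 and 85249 reads in WT. By these reads the KO group holds a male and a female, and both WT mice are female. Sex was thus not balanced between the groups. Small RNAs with their host genes made up 2.13% and 1.13% of gene reads in KO and 8.21% and 1.44% in WT, so WT replicate 1 stood apart; without them the log2 fold change of Gm14085 was 2.48.

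Concentrative nucleoside transporters, the SLC28 family, use the sodium gradient to pull nucleosides into the cell. Equilibrative transporters, the SLC29 family, let nucleosides pass in either direction down their own gradient. Nucleosides taken up are turned back into nucleotides by salvage kinases, and uptake of adenosine also ends its action on receptors at the cell surface. Slc28a2 encodes CNT2, which favours purine nucleosides and uridine. Gm14085 carries the symbol Slc28a2b in the current RefSeq gene table. Slc29a1 encodes ENT1, the broad-range equilibrative transporter of most cells.

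Gm14085 and Slc28a2 lie near each other on the plus strand of chromosome 2 and are close copies. In mm9, Gm14085 (NM_001085518) spans 122310677 to 122353776 and Slc28a2 (NM_172980) spans 122252213 to 122286866. In the GENCODE M21 transcripts (GRCm38) both coding sequences are 1980 bases long and differ at 108 bases, an identity of 94.5%. Each transcript compared has 18 exons, and exons 2 to 17 have equal lengths in the pair. Exons 4, 9 and 15 are identical, while exon 5 has the lowest identity at 78.8%. Of 3691 windows of 50 bases along the Gm14085 transcript, 1498, or 40.6%, occur letter for letter in Slc28a2. A read from such a window cannot be told apart between the genes by its sequence. Gene reads were limited to primary alignments at mapping quality 10 or higher. Beyond that, the sources used here do not state how reads from such windows were counted.

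How far the pair can be separated therefore depends on the place in the transcript. The following stretches show it, each with 25 bases on either side of an exon junction in GRCm38, plus strand, 5′ to 3′, with capitals at the bases that differ in the pair. The junction of exons 5 and 6 is the one that differs most, that of exons 9 and 10 differs in exon 10 alone, that of exons 10 and 11 is the one at which Slc28a2 had no read, and that of exons 17 and 18 is identical in both genes. For Gm14085 the first of these joins chr2:122494376-122494400 to chr2:122514367-122514391, and for Slc28a2 it joins chr2:122447929-122447953 to chr2:122449763-122449787. The junction of exons 10 and 11 joins chr2:122518518-122518542 to chr2:122521631-122521655 in Gm14085, and chr2:122452540-122452564 to chr2:122454481-122454505 in Slc28a2.
Gm14085 exon 5 to exon 6: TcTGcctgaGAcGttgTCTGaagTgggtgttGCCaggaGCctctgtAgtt
Slc28a2 exon 5 to exon 6: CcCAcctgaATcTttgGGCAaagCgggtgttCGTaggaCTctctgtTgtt
Gm14085 exon 9 to exon 10: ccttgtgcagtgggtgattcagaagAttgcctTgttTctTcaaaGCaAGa
Slc28a2 exon 9 to exon 10: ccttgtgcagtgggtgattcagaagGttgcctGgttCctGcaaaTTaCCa
Gm14085 exon 10 to exon 11: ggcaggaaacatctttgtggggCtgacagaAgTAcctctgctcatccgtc
Slc28a2 exon 10 to exon 11: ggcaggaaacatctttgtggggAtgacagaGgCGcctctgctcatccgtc
Both genes, exon 17 to exon 18: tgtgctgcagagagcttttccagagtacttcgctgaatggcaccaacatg

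Gm14085 stood higher in both KO libraries than in both WT libraries, and KO replicate 2 was the highest of the 4. It had 727 and 1201 reads, or 26.3 and 38.8 CPM, in KO thymocytes, against 271 and 243 reads, or 6.96 and 4.76 CPM, in WT thymocytes. The means were 32.6 ± 8.82 CPM in KO and 5.86 ± 1.55 CPM in WT (SD, n = 2 each), a ratio of 5.55 and a fitted log2 fold change of 2.48 (SE 0.26). The groups did not overlap, and single KO to WT ratios ran between 3.78 and 8.14. Among the 13733 genes tested, 23.3% had both KO libraries above both WT libraries, and 0.604% had a larger log2 fold change in either direction. edgeR called 1 gene of the 13733, or 0.00728%, and Gm14085 was not that gene; DESeq2 called 103 of 13618, or 0.756%, with Gm14085 among them. As the gene was chosen on this contrast, nothing is read from either call.

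The orders of the libraries for Gm14085 and for Hnrnpl ran opposite within KO and alike within WT. KO replicate 2 had more Gm14085 and less Hnrnpl than KO replicate 1. WT replicate 1 had more of both genes than WT replicate 2. With 2 mice a group this is a description of single animals. In bulk RNA, fewer cells of a type and less RNA per cell cannot be told apart. The 8 double-negative thymocyte markers summed to 577 and 976 CPM in KO and to 587 and 786 CPM in WT. The 8 markers of mature single-positive cells summed to 1024 and 661 CPM in KO and to 1047 and 1031 CPM in WT. KO replicate 2 was the highest library in the first list and the lowest in the second. The 8 double-positive markers summed to 11893 and 9281 CPM in KO and to 12024 and 11302 CPM in WT, with KO replicate 2 again the lowest. The 12 markers of thymic stroma and epithelium summed to 269 and 317 CPM in KO and to 268 and 281 CPM in WT, with KO replicate 2 the highest. Pecam1 alone made up most of each sum, with 189 and 172 CPM in KO and 171 and 177 CPM in WT. The sum therefore says little about the other markers of that list. Epcam, 1 of the 12 markers, was named after its values were seen. It had 11 and 17.2 CPM in KO and 8.12 and 7.84 CPM in WT, the same order of libraries as Gm14085. It was the only 1 of the 12 with both KO libraries above both WT libraries, beside 23.3% of all genes tested. Other markers of the list ran otherwise. KO replicate 1 was the lowest library for Krt8, Psmb11, Aire, Col1a1, Col3a1 and Pdgfrb. Among these, Psmb11 had 3.98 and 15.8 CPM in KO and 9.12 and 5.82 CPM in WT. The 11 myeloid markers summed to 229 and 211 CPM in KO and to 220 and 225 CPM in WT. Erythroid markers, 10 of 12 of them in the tables, summed to 464 and 97.2 CPM in KO and to 149 and 133 CPM in WT, with KO replicate 1 the high library. Sums for B cell markers (8 of 8 in the tables) were 49.4 and 40.3 CPM in KO and 43.1 and 45.0 CPM in WT, and no marker of these lists was at 0. The part of cell composition in the Gm14085 difference was not tested.

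Slc28a2, the neighbour and near copy, had overlapping groups. It had 1740 and 1684 reads, or 63.0 and 54.4 CPM, in KO, against 2131 and 2466 reads, or 54.7 and 48.3 CPM, in WT. KO replicate 1 was the highest library and WT replicate 2 the lowest, while KO replicate 2 fell just under WT replicate 1. The means were 58.7 ± 6.09 CPM in KO and 51.5 ± 4.52 CPM in WT (SD, n = 2 each), with a log2 fold change of 0.19 (SE 0.12). A larger log2 fold change in either direction was found for 49.1% of the genes tested.

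Set against its neighbour, Gm14085 took a larger part of the pair's gene reads in KO. Of the reads assigned to either gene, Gm14085 had 29.5% in KO replicate 1 (95% Clopper-Pearson interval 27.7 to 31.3%) and 41.6% in KO replicate 2 (39.8 to 43.5%). The same share was 11.3% in WT replicate 1 (10 to 12.6%) and 8.97% in WT replicate 2 (7.92 to 10.1%). The intervals cover counting error only. Per kilobase, Gm14085 stood at 0.436 and 0.744 of Slc28a2 in KO, and at 0.133 and 0.103 of it in WT.

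**Figure D1:**
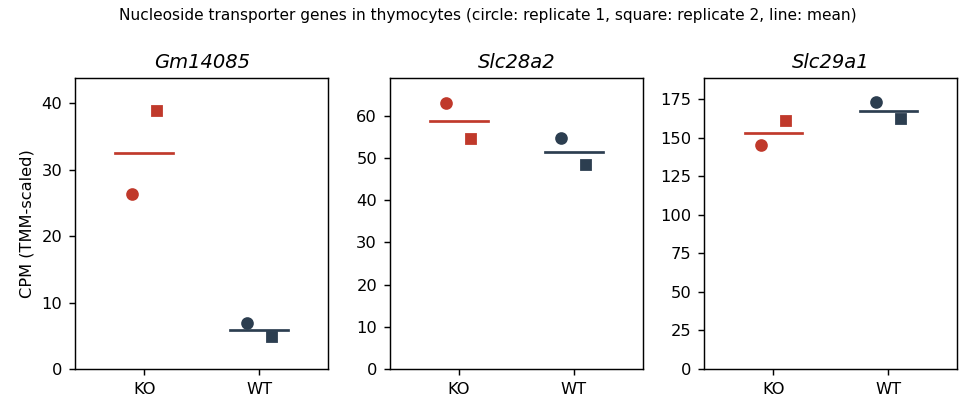
CPM with TMM scaling of Gm14085, Slc28a2 and Slc29a1 in each library, with points for single mice and a line for the group mean, KO left of WT. Gm14085 is at 26.3 and 38.8 CPM in KO and at 6.96 and 4.76 CPM in WT, while the KO and WT points of Slc28a2 overlap and those of Slc29a1 are next to each other.

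Slc29a1 (NM_001199113, mm9 chromosome 17, 45722149 to 45730589, minus strand) was the most abundant of the 3 in every library. It had 3997 and 4979 reads, or 145 and 161 CPM, in KO, against 6721 and 8242 reads, or 173 and 162 CPM, in WT. Both KO libraries lay below both WT libraries, by a margin of under 2 CPM between KO replicate 2 and WT replicate 2; 21.4% of the genes tested had both KO libraries below both WT libraries. The means were 153 ± 11.4 CPM in KO and 167 ± 7.82 CPM in WT (SD, n = 2 each), with a log2 fold change of -0.13 (SE 0.12). For 62.7% of the genes tested the log2 fold change was larger in one direction or the other.

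Levels per kilobase of transcript allow genes to be set against each other, with a limit for Gm14085 and Slc28a2. Their full transcript lengths were used, although reads from the stretches they share may not all have been counted. Their levels, ranks and shares beside other genes are uncertain to that extent. Slc29a1 stood at 69.1 and 76.8 CPM per kb in KO and at 82.4 and 77.1 in WT. Slc28a2 followed with 16.1 and 13.9 CPM per kb in KO and 14 and 12.4 in WT. Gm14085 was the lowest of the 3, with 7.04 and 10.4 CPM per kb in KO and 1.86 and 1.27 in WT. By the group mean Gm14085 ranked 7341st of 22730 symbols in KO and 10299th in WT, whereas Slc29a1 ranked 920th and 936th. Summed over the 8 SLC28 and SLC29 genes in the tables, the level was 98.9 and 109 CPM per kb in KO and 102 and 96.7 in WT. Slc29a1 made up 69.9% and 70.1% of that sum in KO and 80.8% and 79.8% in WT, and Gm14085 made up 7.12% and 9.47% in KO and 1.82% and 1.32% in WT. Slc28a2 gave 16.3% and 12.7% in KO and 13.7% and 12.8% in WT, with overlapping groups.

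Among the other transporters of nucleosides and nucleobases, 5 of the 9 listed genes were tested, and none passed edgeR or DESeq2. Of the 5, 1 gene, higher in KO, had an unadjusted p under 0.05 (864 higher and 496 lower among all 13733 tested). The log2 fold change was positive in 3 and negative in 2, with a median of 0.16 beside 0.008 over all genes tested; that median was 0.59 without KO replicate 1 and 0.02 without KO replicate 2, and 0.10 without WT replicate 1. Slc29a3, the lysosomal equilibrative transporter ENT3, had 30.3 and 37.9 CPM in KO and 16.2 and 26.9 CPM in WT, with a log2 fold change of 0.66 (SE 0.25, edgeR adjusted p = 0.486). Slc29a2, the equilibrative transporter ENT2, had 1.74 and 2.42 CPM in KO and 1.10 and 1.53 CPM in WT (0.66, SE 0.36, edgeR adjusted p = 0.552). In both genes, 2 of the 5 tested, the KO libraries lay above the WT libraries, which did not amount to a call. Over all genes tested that held for 23.3%.

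Slc43a3, a purine nucleobase carrier, had 52.2 and 71.6 CPM in KO and 52.7 and 58.0 CPM in WT, overlapping groups. Slc23a2, a sodium-coupled ascorbate transporter of the nucleobase carrier family, had 144 and 109 CPM in KO and 142 and 143 CPM in WT, where KO replicate 2 was the low library. Slc29a4, which carries monoamines and adenosine, was under 0.4 CPM in every library. The remaining 4 genes were too low for the test, with at most 10 reads in any library. Slc22a4 had 0 and 2 reads in KO and 3 and 10 in WT, and Slc28a1 had 2 and 2 reads in KO and 5 and 3 in WT. For Slc23a1 there were 1 and 9 reads in KO and 3 and 5 in WT. Slc28a3 had 0 and 3 reads in KO and 0 and 1 in WT, where a count of 0 allows up to 3 reads.

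In mean level per kilobase, the KO order was Slc29a1, Slc43a3, Slc23a2, Slc28a2, Gm14085, Slc29a3 and Slc29a2. In WT it was Slc29a1, Slc23a2, Slc43a3, Slc28a2, Slc29a3, Gm14085 and Slc29a2. Slc43a3 and Slc23a2 overlapped in level in both groups. Gm14085 and Slc29a3 changed places between the groups, and the limit from shared stretches applies to the levels of Gm14085. In KO their libraries overlapped, with 7.04 and 10.4 CPM per kb for Gm14085 and 5.79 and 7.24 for Slc29a3. In WT they did not, with 1.86 and 1.27 CPM per kb for Gm14085 and 3.09 and 5.13 for Slc29a3. The other neighbours in either order were apart in all libraries of the group.

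**Figure D2:**
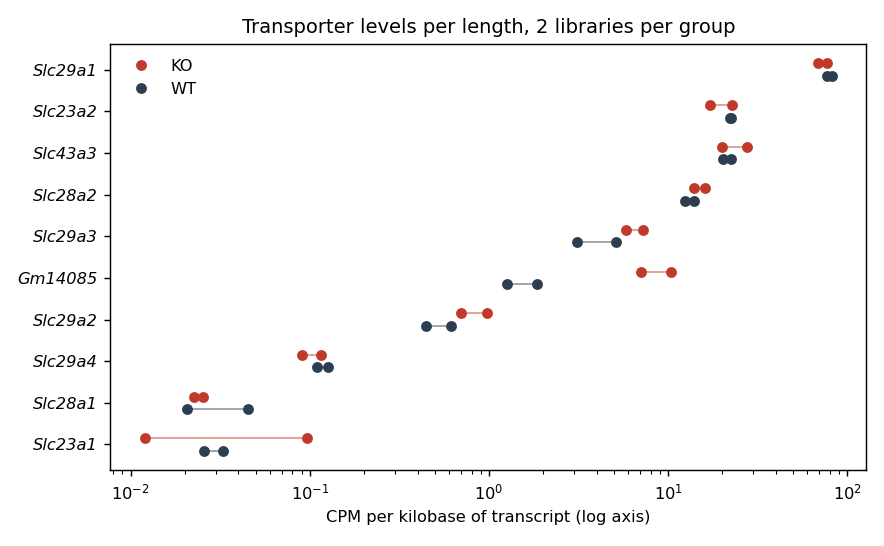
Level per kilobase of transcript (CPM per kb, log axis) of the nucleoside and nucleobase transporter genes that had a read in every library, with a point for each mouse, a line between mice of a group and KO above WT. Slc29a1 is the highest gene in every library, and Gm14085 lies at 7.04 and 10.4 in KO and 1.86 and 1.27 in WT.

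Reads across exon junctions, counted by the authors in separate tables, gave a smaller KO to WT ratio for Gm14085 than the gene reads. Its 17 known junctions held 257 and 340 reads in KO and 168 and 222 in WT. Scaled to all junction reads of each library (junction CPM) these were 77.8 and 96.7 junction CPM in KO and 35.3 and 36.1 junction CPM in WT, a ratio of means of 2.44, beside 5.55 for the gene reads. Slc28a2, with 18 known junctions, had 370 and 378 reads in KO and 375 and 475 in WT, or 112 and 108 junction CPM in KO and 78.8 and 77.3 junction CPM in WT. Its ratio was 1.41, beside 1.14 for the gene reads. For Slc29a1 the junction ratio of 0.928 was close to the 0.914 of the gene reads.

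Gm14085 also had many junction reads for its gene reads. Per 100 gene reads it had 35.4 and 28.3 junction reads in KO and 62.0 and 91.4 in WT. The median over 9014 genes with at least 200 gene reads in every library was 11 and 11 in KO and 11.2 and 11 in WT. Gm14085 lay above 97.2% and 94.8% of those genes in KO and above 98.9% and 99.4% of them in WT. The values of Slc28a2 were 21.3 and 22.4 in KO and 17.6 and 19.3 in WT, and those of Slc29a1 were 15.9 and 16.1 in KO and 15.5 and 17.5 in WT. Per the file headers the gene reads had a mapping quality of at least 10, whereas the junction tables state no minimum.

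The junction reads of the pair divided according to how much the genes differ there. At the 6 junctions with identical sequence in the 50-base stretch, such as that of exons 17 and 18, Gm14085 was assigned 165 and 193 reads in KO and 116 and 177 in WT. Slc28a2 was assigned 143 and 192 reads there in KO and 126 and 177 in WT. The share of Gm14085 was 53.6% (95% Clopper-Pearson interval 47.8 to 59.2%) and 50.1% (45.0 to 55.2%) in KO, and 47.9% (41.5 to 54.4%) and 50.0% (44.7 to 55.3%) in WT. All 4 intervals hold an even split of the summed reads. Single identical junctions were less even: that of exons 12 and 13 had 38 and 32 Gm14085 reads in KO and 18 and 19 in WT, against 14 and 15 Slc28a2 reads in KO and 3 and 8 in WT. Over the 6 junctions together the KO to WT ratios were alike, at 1.97 for Gm14085 and 1.77 for Slc28a2.

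At the 4 junctions with 4 or more differing bases, a limit chosen after the values were seen, the pair came apart. Gm14085 had 48 and 86 reads there in KO and 31 and 14 in WT, while Slc28a2 had 142 and 88 in KO and 160 and 150 in WT. The share of Gm14085 was 25.3% (19.3 to 32.1%) and 49.4% (41.8 to 57.1%) in KO, against 16.2% (11.3 to 22.2%) and 8.54% (4.75 to 13.9%) in WT. The KO to WT ratio was 4.44 for Gm14085 and 1.17 for Slc28a2, both nearer to the ratios of the gene reads than the values over all known junctions. The intervals of KO replicate 1 and WT replicate 1 overlap. At the 7 junctions with fewer differences the ratios were 3.24 for Gm14085 and 1.26 for Slc28a2.

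Single junctions were uneven. At exons 5 and 6, the most divergent junction, Gm14085 had 1 and 4 reads in KO and 3 and 0 in WT, while Slc28a2 had 60 and 35 in KO and 49 and 50 in WT. At exons 9 and 10, Gm14085 had 4 and 19 reads in KO and 11 and 6 in WT, with overlapping groups. At exons 10 and 11 it had 34 and 51 reads in KO and 16 and 4 in WT. Slc28a2 had 0 reads at that last junction in all 4 libraries, which allows up to 3 reads in each, although its junction of exons 9 and 10 had 45 and 28 reads in KO and 70 and 69 in WT. Its junction of exons 11 and 12, which is identical in Gm14085, had 47 and 45 reads in KO and 49 and 46 in WT. Without exons 10 and 11, the more divergent junctions gave Gm14085 14 and 35 reads in KO and 15 and 10 in WT, a ratio of 2.97, and a share of 8.97% and 28.5% in KO against 8.57% and 6.25% in WT. KO replicate 1 then lay next to WT replicate 1, so the separation of that library at divergent junctions rests on the junction of exons 10 and 11.

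The 11 junctions with any differing base were split by place after their reads had been seen. Between exons 1 and 10 Gm14085 had 40 and 67 reads in KO and 31 and 36 in WT, or 12.1 and 19.1 junction CPM in KO and 6.51 and 5.86 in WT, a ratio of 2.52. Between exons 10 and 18 it had 52 and 80 reads in KO and 21 and 9 in WT, or 15.7 and 22.8 junction CPM in KO and 4.41 and 1.46 in WT, a ratio of 6.55. Both KO libraries were above both WT libraries in either stretch. Leaving out exons 10 and 11, the downstream stretch had 18 and 29 reads in KO and 5 and 5 in WT, a ratio of 7.35. Slc28a2 had ratios of 1.18 upstream and 1.37 downstream over the same junctions. Whether the ratio differs along Gm14085 was not tested.

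**Figure D3:**
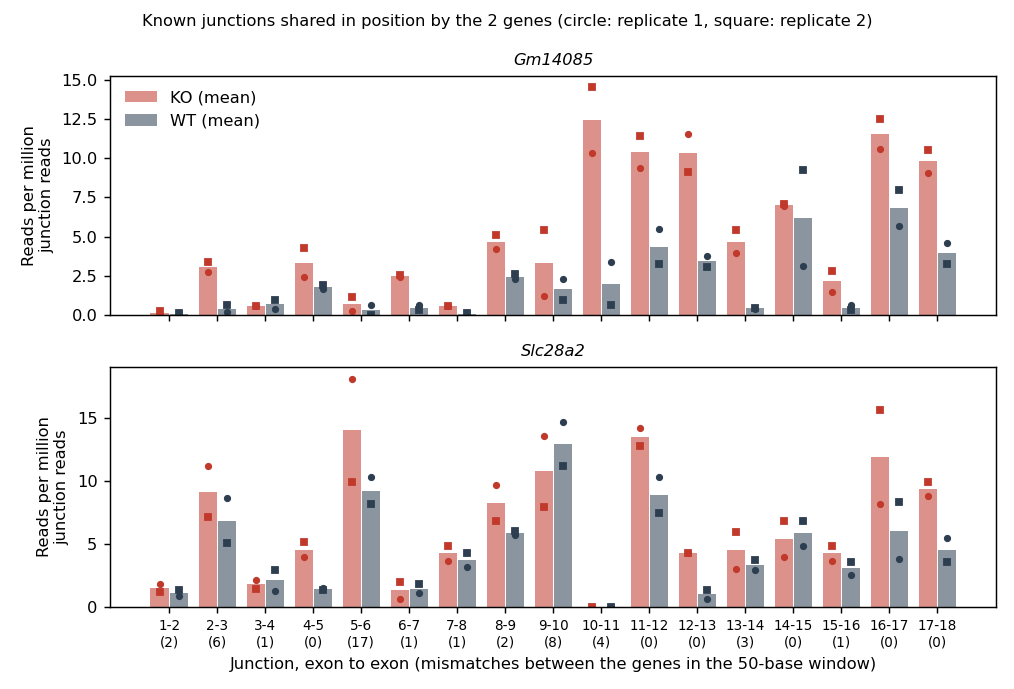
Junction reads as CPM of all junction reads of the library (y axis) at each matched junction of Gm14085 (top) and Slc28a2 (bottom), in transcript order, with bars for group means, points for single mice and the number of differing bases in the 50-base stretch in brackets. At exons 5 and 6 nearly all reads were assigned to Slc28a2, and at exons 10 and 11 all of them were assigned to Gm14085. At exons 17 and 18 the genes hold like numbers. Which gene the assigned reads came from was not tested.

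Junctions marked putative in the tables added little to the pair. For Gm14085 9 of them had 13 reads in all, and for Slc28a2 10 had 16 reads in all, with no junction above 4 reads over the 4 libraries.

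Slc29a1 was read mainly through its known junctions, and 2 places showed alternative splicing. The first is the end of exon 8, where a pair of splice sites gives an exon of 79 or 73 nucleotides, so that the long form adds 6 bases, or 2 codons. The end of either form and the first bases of the next exon are given below on the minus strand of GRCm38, 5′ to 3′, where the long exon is chr17:45588996-45589074, to show what is gained, with the added bases in capitals.
Slc29a1 exon 8, long: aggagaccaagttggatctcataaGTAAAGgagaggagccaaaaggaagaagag
Slc29a1 exon 8, short: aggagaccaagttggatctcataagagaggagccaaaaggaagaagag

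The short form was the more frequent one in every library. The long junction (mm9 chromosome 17, 45725335 to 45725945) had 25 and 38 reads in KO and 21 and 61 in WT, and the short junction (45725335 to 45725951) had 63 and 78 in KO and 98 and 169 in WT. The long form made up 28.4% (95% Clopper-Pearson interval 19.3 to 39.0%) and 32.8% (24.3 to 42.1%) in KO, against 17.6% (11.3 to 25.7%) and 26.5% (20.9 to 32.7%) in WT. Both KO libraries were above both WT libraries, with 30.6 ± 3.11% in KO and 22.1 ± 6.29% in WT (SD, n = 2 each). How often splice choices of other genes separate the groups in this way was not counted, so nothing is read from that order. The difference of 8.55 points was smaller than the gap between the WT mice, and the interval of KO replicate 1 holds that of WT replicate 2.

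**Figure D4:**
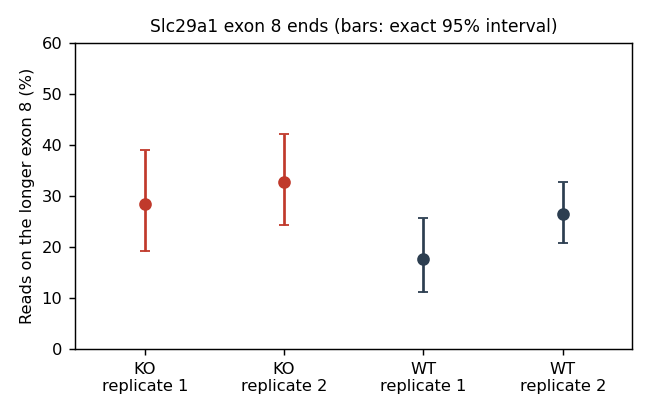
Percent of Slc29a1 exon 8 junction reads that use the long form in each library, with 95% Clopper-Pearson intervals as bars and KO left of WT. The KO libraries are at 28.4 and 32.8% and the WT libraries at 17.6 and 26.5%, and the intervals of the groups overlap.

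The second place is a 101-nucleotide exon near the start of the gene (mm9 chromosome 17, 45730281 to 45730381). Its downstream junction had 3 and 20 reads in KO and 14 and 23 in WT, its upstream junction had 16 and 15 in KO and 38 and 38 in WT, and the junction that skips it had 26 and 22 in KO and 58 and 34 in WT. Inclusion, taken as the mean of the inclusion junctions over that mean plus the skipping reads, was 26.8% and 44.3% in KO and 31.0% and 47.3% in WT. The groups overlapped, at 35.5 ± 12.4% in KO and 39.1 ± 11.5% in WT (SD, n = 2 each). The upstream junction is marked putative in the authors' tables and is present in GENCODE M21.

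None of the tested genes around Gm14085 had a log2 fold change near its own. Within 500 kb, 20 other symbols were listed and 14 were tested, of which edgeR and DESeq2 called none, with 2 higher and 1 lower at an unadjusted p under 0.05. Of the 14, 6 had positive and 8 negative log2 fold changes, with a median of -0.04, which was -0.17 without KO replicate 1, -0.10 without WT replicate 2 and 0.03, of the opposite sign, without WT replicate 1. Bambi-ps1, a pseudogene between Slc28a2 and Gm14085 and 17.1 kb from Gm14085, had 35.8 and 37.8 CPM in KO and 29.5 and 22.1 CPM in WT (log2 fold change 0.52, SE 0.17, edgeR adjusted p = 0.452). Gatm, which makes the creatine precursor and lies 66.4 kb away, had a log2 fold change of 0.34 (SE 0.38). Slc30a4, a zinc transporter gene 153 kb away, had 151 and 106 CPM in KO and 187 and 195 CPM in WT (-0.57, SE 0.17, edgeR adjusted p = 0.439). It passed edgeR without KO replicate 1 (-0.85, adjusted p = 0.0235).

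The log2 fold changes of the remaining tested neighbours lay between -0.26 (Ctdspl2, SE 0.12) and 0.54 (Patl2, SE 0.41). B2m, the light chain of MHC class I, had -0.05 (SE 0.12) and Sord, sorbitol dehydrogenase, -0.19 (SE 0.13). Spg11 had 0.26 (SE 0.11), Eif3j -0.18 (SE 0.18) and Trim69 0.00 (SE 0.59). For Shf the value was -0.03 (SE 0.17), for AA467197 -0.16 (SE 0.38), for Pldn -0.06 (SE 0.12) and for Sqrdl 0.10 (SE 0.25). The 6 untested neighbours had at most 10 reads in any library. Duoxa1, among them and named after its values were seen, had 5 and 6 reads in KO and 1 and 2 in WT. Both its KO libraries lay above both WT libraries. Its ratio of mean CPM was 5.78 on these few reads, beside 5.55 for Gm14085. Every one of the 14 tested neighbours was below the 2.48 of Gm14085 by more than 1.5 on the log2 scale. As Gm14085 was chosen with its large difference known, that gap is no separate result.

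**Figure D5:**
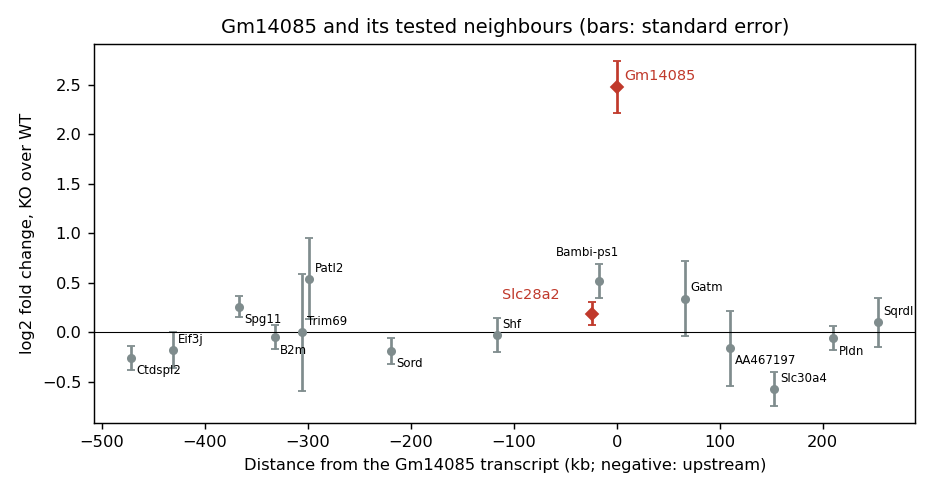
Log2 fold change, KO over WT, with its standard error as a bar, of Gm14085, Slc28a2 and the 14 tested neighbours within 500 kb, placed by distance from the Gm14085 transcript in kb. Gm14085 is at 2.48, and the others lie between -0.57 and 0.54.

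The pathways that use transported nucleosides showed no called gene. Of 29 salvage and breakdown genes, 25 were tested, edgeR and DESeq2 called 0 in either direction, and 0 had an unadjusted p under 0.05. Of these, 8 had positive and 17 negative log2 fold changes, with a median of -0.08, or -0.02 without WT replicate 1. The 3 with the smallest p were Gda, which deaminates guanine (0.61, SE 0.28, edgeR adjusted p = 0.515), Ampd2, an AMP deaminase (0.37, SE 0.18, edgeR adjusted p = 0.525), and Tk2, the mitochondrial thymidine kinase (0.29, SE 0.15, edgeR adjusted p = 0.529). Gda had 18 and 9.98 CPM in KO and 8.22 and 10 CPM in WT, so that KO replicate 1 alone stood high.

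The list of extracellular adenosine genes held mainly receptors and surface enzymes of adenosine and ATP. It also held the ATP channel gene Panx1, the peptidase gene Dpp4 and Adal, a deaminase inside the cell. The list numbered 14, of which 11 were tested. edgeR and DESeq2 called none, and 2 genes, both lower in KO, had an unadjusted p under 0.05. The log2 fold change was positive in 4 and negative in 7, with a median of -0.25, or -0.05 without KO replicate 1 and -0.07 without WT replicate 1. Nt5e encodes CD73, which forms adenosine from AMP, and had 9.27 and 5.2 CPM in KO and 11.5 and 12.8 CPM in WT (-0.75, SE 0.27, edgeR adjusted p = 0.484). Panx1, a channel that releases ATP, had 85.6 and 66.8 CPM in KO and 99.4 and 101 CPM in WT (-0.40, SE 0.14, edgeR adjusted p = 0.476). In both genes the KO libraries lay below the WT libraries. That held for 5 of the 11 tested genes, beside 21.4% of all genes tested. In 2 of the 11 the KO libraries lay above, beside 23.3% of all. Without KO replicate 1 the log2 fold change was -1.23 for Nt5e and -0.59 for Panx1. Acpp, an acid phosphatase that also acts on AMP, had -0.32 (SE 0.16, edgeR adjusted p = 0.527).

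All 23 genes of de novo nucleotide synthesis were tested and edgeR and DESeq2 called none, with 1 gene, higher in KO, at an unadjusted p under 0.05. There were 14 positive and 9 negative log2 fold changes and a median of 0.10. Without KO replicate 2 that median was -0.08, of the opposite sign, without KO replicate 1 it was 0.17, and without WT replicate 1 it was 0.04. Adssl1, an adenylosuccinate synthetase, had 10.6 and 14.5 CPM in KO and 9.45 and 7.35 CPM in WT (0.58, SE 0.22, edgeR adjusted p = 0.486). Prps2, which makes phosphoribosyl pyrophosphate, had -0.29 (SE 0.15, edgeR adjusted p = 0.527), and Rrm2, a ribonucleotide reductase subunit, had 0.28 (SE 0.15, edgeR adjusted p = 0.544). Over all genes tested, 864 higher and 496 lower genes had an unadjusted p under 0.05.

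Few tested genes resembled Gm14085 over the 4 libraries. The measure depends on the size of the KO to WT difference, by which the gene was chosen, so the count of like genes is no separate result. Likeness was measured as the Euclidean distance of log2 CPM, centred on each gene's mean, and 3 of the other 13732 genes lay within 0.5 of Gm14085. The nearest were Ccdc68 (0.0627), Akr1b7 (0.272), 2410076I21Rik (0.483), Hepacam (0.529) and Ninj2 (0.549), and all 5 were under 1 CPM in every library. Their log2 fold changes ran between 2.95 and 3.60, beside 2.48 for Gm14085. The distance uses a prior count of 2, which pulls values of genes with few reads towards each other, so a small distance of such a gene is not a like fold change. Slc28a2, with its small fold change, had 8605 genes within 0.5, led by Zfp688 (0.0351), Sec31b, Wdr7, Zfp287 and Fyco1. For Slc29a1 there were 9039, led by Trpc2 (0.0177), Ebna1bp2, Apcdd1, Ppat and Bri3bp, of which Ppat encodes the committed enzyme of purine synthesis.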

How the data were processed

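RNA-seq libraries of total thymocytes from 2 hnRNP L KO and 2 WT mice were described from tables the authors deposited for each library. The transcript tables hold raw read counts per RefSeq transcript, which per the file headers come from primary alignments at mapping quality 10 or higher. They also hold reads per nucleotide (a ratio) and RPKM values, both computed by the authors from those counts and used here in no test. The deposited junction tables hold raw read counts per exon junction, marked known or putative. Coordinates are in mm9, per the submitters' processing notes. The sources used here state neither the aligner nor the read length nor the use of strand. The label names separate mice, so replicates are animals.

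The transcript with the most reads was kept for each of 22730 symbols. All 13733 genes past edgeR's filter on low counts were fitted in edgeR 4.0.16 (R 4.3.3) with TMM scaling, a robust quasi-likelihood test and Benjamini-Hochberg adjustment at 0.05. Alternatives were DESeq2 1.42.0, limma-voom (limma 3.58.1), other scalings and filters, left-out libraries and a replicate block. The edgeR fit was run on simulated counts with known folds, drawn with a smooth trend of spread against level. Single genes had no spread of their own there, so the run does not show how many real changes the fit finds here. Fold changes are KO over WT. Gene copies were compared in GENCODE M21 transcripts of GRCm38; junctions were matched by exon order and intron length, and no coordinate was converted. The 50-base stretch follows the sequencing kit's name. The members, the gene lists and the tests were chosen with earlier results of these data known. Genes named are the members, Hnrnpl, all listed transporters, the 3 smallest p of each other pathway list, the tested neighbours and the 5 most alike genes. Ddx3y and Xist were added as a check of sex, and Duoxa1 and Epcam after their values were seen. Symbols are those of the files.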

Additional observations from a re-analysis of the deposited data

How the results depend on the processing

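The log2 fold changes of the 3 genes kept their direction in all 13 alternatives, between 2.17 and 2.78 for Gm14085, 0.07 and 0.29 for Slc28a2, and -0.21 and -0.06 for Slc29a1. The number of genes called over the whole table, 1 in the reported fit, was 0 with upper-quartile scaling, limma-voom, no robust moderation or summed transcripts, 3 without small RNA genes, 62 with no filter, 103 with DESeq2, and between 2 and 427 with a library left out (427 without KO replicate 1 and 13 without the other KO mouse, 2 without WT replicate 1 and 43 without the other WT mouse); a lone library is then assumed to vary like the other group. With the replicate number as a block it was 121, and the block gave 2.47 for Gm14085, 0.19 for Slc28a2 and -0.13 for Slc29a1. The shared numbers are not stated to pair the mice; deviations of same-numbered mice correlated at 0.259 across 13733 genes. The cause of these shifts was not tested. Among list medians, the other transporters ranged from 0.02 to 0.59 with a library left out, salvage from -0.08 to -0.02 (-0.02 also with upper-quartile scaling), extracellular adenosine from -0.23 to -0.05, de novo synthesis from -0.08 to 0.17 and the neighbours from -0.17 to 0.03. The adenosine median, -0.25 as reported, was -0.20 with upper-quartile scaling and with limma-voom, -0.21 with no filter and with summed transcripts, and -0.22 with DESeq2. Called genes in the lists numbered 0 to 2 for extracellular adenosine and 0 to 1 for the neighbours with a library left out, all of them without KO replicate 1. For junction reads, the log2 ratio of Gm14085 was 1.29 over all known junctions, 0.98 at identical ones, 2.15 at those with 4 or more differing bases and 1.57 there without exons 10 and 11, alternatives chosen after seeing the data. That of Slc28a2 was 0.49 over all junctions, 0.44 with TMM scaling by gene reads, 0.83 at identical junctions and 0.23 at the divergent ones with or without exons 10 and 11. Depth limits the junction values: at the divergent junctions of Gm14085 single libraries had between 14 and 86 reads. With 2 mice a group the spread between animals is poorly known.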
